A study of Papio hamadryas with 11 samples.

Results

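The genes described here are 10 markers of the liver sinusoidal endothelium: STAB1, STAB2, LYVE1, CLEC4G, CLEC4M, FCN2, FCN3, OIT3, PECAM1 and KDR. All probes that the platform annotation gives to these symbols were taken, which was 13 of the 48803 probes on the array. Probes with a detection p-value under 0.05 on at least 4 of the 11 arrays were reported, which left 10 probes of 8 genes. Over the whole array, 12065 probes of 8357 named genes met the same rule. Livers of baboon fetuses (Papio hamadryas) from obese mothers (MO, 5 fetuses) and from control mothers (CON, 6 fetuses) were compared, all at 165 days, or 0.9 of gestation. MO1, MO2 and MO3 were female and MO4 and MO5 male, and CON1, CON2 and CON3 were female and CON4, CON5 and CON6 male. Whole-liver RNA was hybridised to a human Illumina BeadChip, 1 array per fetus, to ask how maternal obesity relates to transcript levels in the fetal liver. The labels do not describe how obesity was brought about or how the mothers were fed.

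Sinusoidal endothelial cells line the capillaries of the liver, have open pores without a continuous basement membrane, and clear waste macromolecules from blood by receptor-mediated endocytosis. STAB1, STAB2 and LYVE1 are scavenger or hyaluronan receptors, CLEC4G and CLEC4M are C-type lectins that bind sugars on glycoproteins and viruses, and FCN2 and FCN3 are secreted ficolins that start the lectin pathway of complement. OIT3 is a secreted zona pellucida domain protein, PECAM1 an adhesion molecule of endothelial junctions, and KDR the main signalling receptor for VEGF. Not all are restricted to this cell: in human tissue STAB1 is also made by macrophages, FCN2 and FCN3 also by hepatocytes, and PECAM1 also by other endothelium, platelets and leukocytes.

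The 11 arrays lay on 2 slides, read from the shared prefix of the array names. Slide 2 held all 5 MO arrays with CON5 and CON6, and slide 1 held CON1 to CON4 and no MO array. Median probe intensity was 69.7 to 80.3 on slide 2 and 62 to 65.6 on slide 1. Between 20.8% and 26.8% of probes were detected per array. Arrays of the same slide correlated at a median of 0.967 over the normalized values, and arrays of different slides at 0.951. Arrays with identical values were not found (0 pairs). Because of this layout, condition and slide cannot be told apart among females, and the control comparison of slides mixes slide with sex. Nothing in the labels ties replicates to separate mothers beyond 1 fetus per array, so p-values measure the spread between these arrays, whose number limits the precision.

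Of the 10 genes, 8 gave a signal above background. STAB1, STAB2, CLEC4G, OIT3, PECAM1, KDR, both FCN2 probes and the first FCN3 probe were detected on all 11 arrays. The second FCN3 probe (ILMN_2349771) was detected on 5 arrays, 1 of 5 MO arrays (MO1) and 4 of 6 CON arrays (CON1 to CON4), so 4 of its 5 detections were on slide 1. The first LYVE1 probe (ILMN_1808114) was detected on 2 arrays, MO2 and MO5, and on 0 of the 6 CON arrays. The second LYVE1 probe (ILMN_2210753) and the CLEC4M probe (ILMN_2322131) were detected on 0 arrays and were not well above background anywhere. Detection p-values of the CLEC4M probe were 0.174 to 0.651 in MO livers and 0.224 to 0.751 in CON livers. The probes were designed on human sequence, and their match to baboon RNA was not checked here, so a dim probe sets no bound on the transcript. For the same reason levels of different probes were not set against each other. Folds taken below against the lowest detected signal describe probe signal only. All values below are log2 intensities after background correction and quantile normalization, and all differences are MO minus CON on that log2 scale unless another contrast is named.

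No sinusoidal endothelial gene differed between MO and CON livers past the threshold. Of the 10 member probes, 0 were called at an adjusted p under 0.05, and the share called among all 12065 probes was 0% as well, with a smallest adjusted p of 0.246. At an unadjusted p under 0.05, 0 of 10 member probes passed, against 13.1% of all probes. Values of the MO and CON groups overlapped for all 10 probes, whereas 1.4% of all probes had groups that did not overlap. 7 member probes had a difference above 0 and 3 below, and over all probes 56% lay above and 44% below 0. The median difference was 0.04 over the members and 0.04 over all probes. The median absolute difference was 0.09 over the members and 0.17 over all probes. In whole liver, fewer cells of a type and less RNA per cell cannot be told apart.

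**Figure D1:**
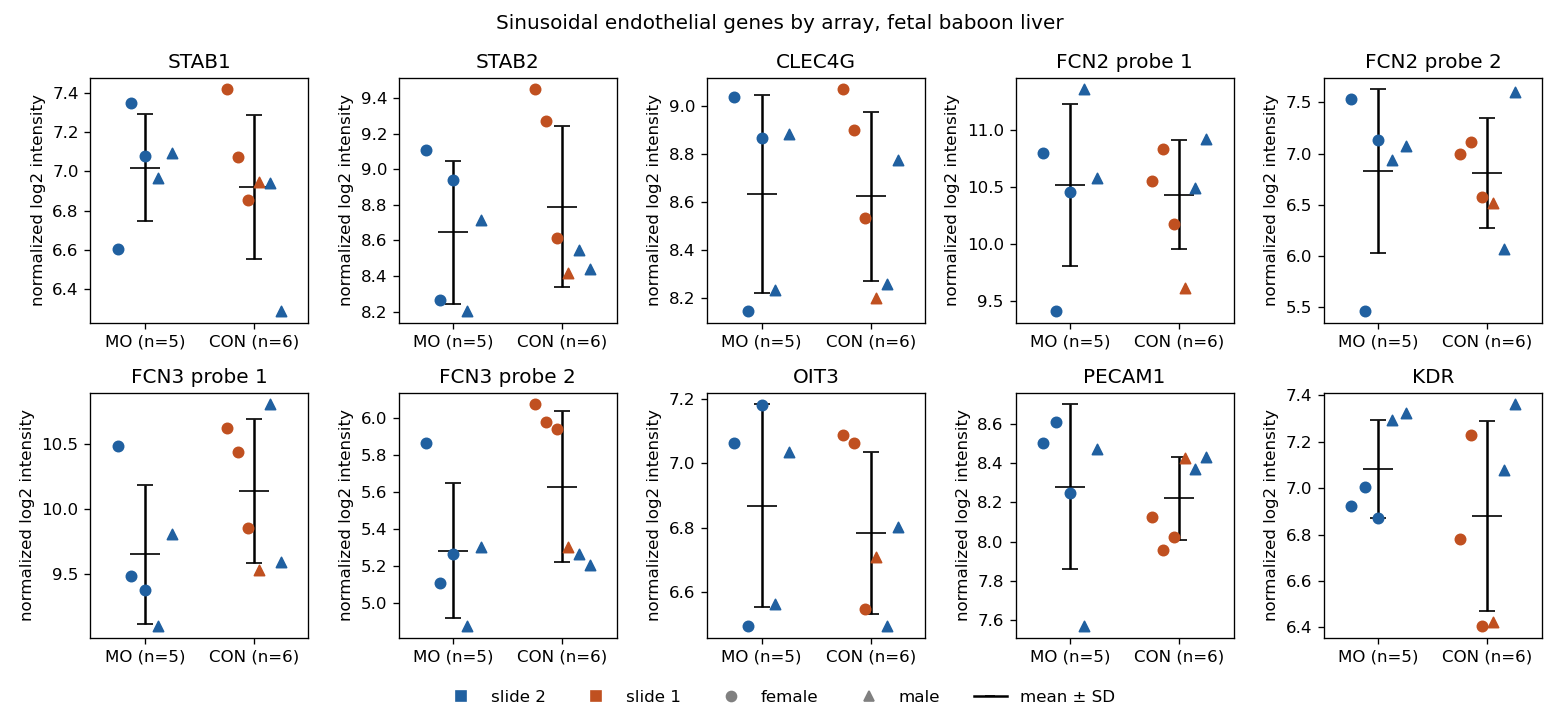
Normalized log2 intensity of the 10 detected member probes, 1 panel per probe, with MO arrays (n = 5) left and CON arrays (n = 6) right. Points are single arrays, coloured by slide and shaped by sex, and bars are mean ± SD. The groups overlap in every panel.

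STAB1 (ILMN_1655987) and STAB2 (ILMN_1677497) are paralogous scavenger receptors, and STAB2 is the chief clearance receptor for hyaluronan in the sinusoid. The log2 level of STAB1 was 6.61, 7.35, 7.08, 6.97 and 7.09 in MO1 to MO5, against a lowest, median and highest value of 6.29, 6.94 and 7.42 in CON livers. Every MO value lay inside the CON range, which ran between CON6 at its low end and CON1 at its high end. Means were 7.02 ± 0.27 in MO livers and 6.92 ± 0.37 in CON livers (SD, n = 5 and 6), a difference of 0.10 (SE 0.19, 95% confidence interval -0.30 to 0.50, adjusted p = 0.821). In a fit with slide as a covariate (slide adjustment), which leaves CON5 and CON6 as the controls of the comparison, the STAB1 difference was 0.40 (95% confidence interval -0.10 to 0.90, adjusted p = 0.762). CON6, 1 of the 2 controls of slide 2, had the lowest STAB1 value of all arrays. The Kupffer cell marker list, described further below, was highest in CON6 after the slide mean was subtracted, at 0.70, where STAB1 was lowest, at -0.62. In CON1 both were above the slide mean, the list at 0.30 and STAB1 at 0.34. The stellate and general endothelial lists were also lowest in CON6, at -0.74 and -0.30. STAB1 is made by macrophages too, and the part of macrophages in its signal was not tested.

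The log2 level of STAB2 was 9.11, 8.26, 8.94, 8.20 and 8.72 in MO1 to MO5, against a lowest, median and highest value of 8.41, 8.58 and 9.45 in CON livers. MO2 and MO4 were below every CON array and CON1 was above every MO array. The means were 8.65 ± 0.40 in MO livers and 8.79 ± 0.45 in CON livers, a difference of -0.14 (SE 0.23, 95% confidence interval -0.65 to 0.36, adjusted p = 0.788). After slide adjustment the STAB2 difference had the opposite sign, at 0.15.

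LYVE1, a hyaluronan receptor shared with lymphatic endothelium, could be read only near background. Detection p-values of its first probe were 0.0395 to 0.0593 in MO livers and 0.0553 to 0.138 in CON livers. In a fit over all probes of the array, this probe had a mean of 5.40 in MO livers and 5.12 in CON livers, a log2 difference of 0.29 (SE 0.06, adjusted p = 0.443). The groups did not overlap, but the margin was narrow, with 5.28 to 5.57 in MO livers and 4.97 to 5.28 in CON livers. The share of such probes over the whole array was not computed, and no slide adjustment was made for this probe. Nothing is read from this split. The probe was not well above background on any CON array or on 3 of the 5 MO arrays, so no fold is given.

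CLEC4G (ILMN_2193817), also known as LSECtin, was the detected member of the lectin pair. Its log2 level was 9.04, 8.14, 8.87, 8.23 and 8.88 in MO1 to MO5, against a lowest, median and highest value of 8.20, 8.66 and 9.07 in CON livers. MO2 was the lowest of all arrays and CON1 the highest. The means of 8.63 ± 0.41 in MO livers and 8.62 ± 0.35 in CON livers differed by 0.01 (SE 0.21, 95% confidence interval -0.45 to 0.47, adjusted p = 0.984), and by 0.12 after slide adjustment.

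The ficolins varied more between fetuses than most transcripts. The SD over the 11 arrays was 0.56 and 0.63 for the FCN2 probes and 0.58 for the first FCN3 probe, at percentiles 91.1, 93.7 and 91.7 of all probes kept, whose median SD was 0.28. The first FCN2 probe (ILMN_1793504) read 10.80, 9.41, 10.46, 11.35 and 10.58 in MO1 to MO5, against a lowest, median and highest value of 9.62, 10.52 and 10.92 in CON livers. MO2 held the lowest and MO4 the highest value of all arrays, so the MO range enclosed the CON range. The difference of this probe was 0.09 (SE 0.31, 95% confidence interval -0.58 to 0.76, adjusted p = 0.912), and -0.19 after slide adjustment. The second FCN2 probe (ILMN_1714057) read 7.53, 5.46, 7.14, 6.94 and 7.07 in MO1 to MO5, against 6.07, 6.79 and 7.60 as lowest, median and highest in CON livers. It too was lowest in MO2, where it was near background (detection p-value 0.0422). Its difference was 0.02 (SE 0.35, 95% confidence interval -0.73 to 0.76, adjusted p = 0.985), and -0.01 after slide adjustment. Without MO2 the differences of the FCN2 probes were 0.36 and 0.36 (adjusted p = 0.561 and 0.567). The FCN2 probes correlated across the 11 arrays after slide means were subtracted (Pearson's r = 0.747, exact permutation p within slides = 0.0108). Without MO2 and MO4, r was 0.605.

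FCN3, the most potent complement activator of the human ficolins, had the largest absolute difference of the members. The first FCN3 probe (ILMN_1780060) read 10.49, 9.48, 9.37, 9.09 and 9.81 in MO1 to MO5, against a lowest, median and highest value of 9.53, 10.15 and 10.81 in CON livers. MO2, MO3 and MO4 lay below every CON array, while MO1 and MO5 lay inside the CON range. Means were 9.65 ± 0.53 in MO livers and 10.14 ± 0.55 in CON livers, a difference of -0.49 or 0.712-fold (SE 0.29, 95% confidence interval -1.11 to 0.13, adjusted p = 0.446). The difference stayed below 0 under each of the 25 settings tried, between -0.85 and -0.35, and was -0.55 after slide adjustment (95% confidence interval -1.45 to 0.35). It did not pass the threshold under any of them.

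The second FCN3 probe read 5.87, 5.11, 5.27, 4.87 and 5.30 in MO1 to MO5, against 5.20, 5.62 and 6.07 as lowest, median and highest in CON livers. Its difference of -0.35 (SE 0.22, 95% confidence interval -0.81 to 0.12, adjusted p = 0.466) had the same sign as that of the first probe, and the probes correlated at r = 0.715 (exact permutation p within slides = 0.0151). Most of its MO values were not well above background. It was detected on 1 MO array and 4 CON arrays, so it met the detection rule only through the CON group, where it is high. No support for the first probe is drawn from this sign or this correlation. After slide adjustment the difference of the second probe was 0.05. CON5 and CON6, the controls of slide 2, read 5.26 and 5.20, inside the MO range.

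OIT3 (ILMN_1693939) read 7.06, 6.50, 7.18, 6.56 and 7.03 in MO1 to MO5, against a lowest, median and highest value of 6.49, 6.76 and 7.09 in CON livers. MO2 and MO4 were low and the other MO livers high, as for CLEC4G. The OIT3 difference was 0.08 (SE 0.17, 95% confidence interval -0.27 to 0.44, adjusted p = 0.832), and 0.22 after slide adjustment. It had the smallest SD of the members over the 11 arrays, at 0.27, close to the median of all probes.

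PECAM1 (ILMN_1689518), present on all endothelium, read 8.50, 8.61, 8.25, 7.57 and 8.47 in MO1 to MO5, against a lowest, median and highest value of 7.96, 8.25 and 8.43 in CON livers. MO4 was the lowest of all arrays, and 3 of the other MO arrays were above every CON array. The PECAM1 difference was 0.06 (SE 0.18, 95% confidence interval -0.34 to 0.46, adjusted p = 0.898), -0.12 after slide adjustment, and 0.24 without MO4 (adjusted p = 0.592). KDR (ILMN_1686405) read 6.92, 7.00, 6.87, 7.29 and 7.32 in MO1 to MO5, against a lowest, median and highest value of 6.40, 6.93 and 7.36 in CON livers. All MO values of KDR lay inside the CON range. The KDR difference was 0.20 (SE 0.19, 95% confidence interval -0.21 to 0.61, adjusted p = 0.628), and -0.14 after slide adjustment.

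**Figure D2:**
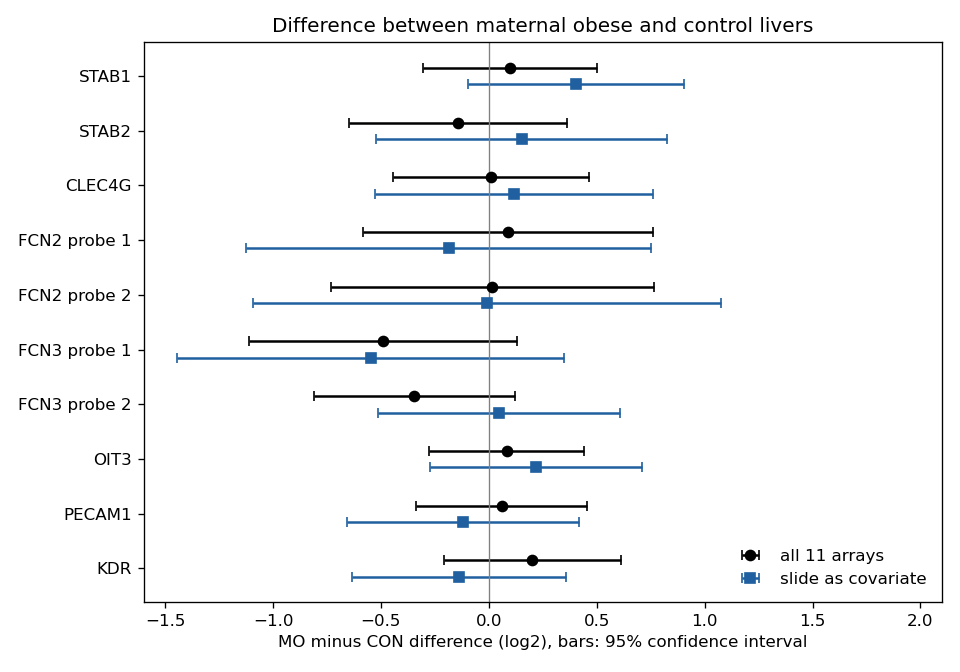
MO minus CON difference on the log2 scale for each member probe, with its 95% confidence interval, from all 11 arrays (circles) and with slide as a covariate (squares). All intervals of both fits cross 0, and the signs of STAB2, KDR, PECAM1, both FCN2 probes and the second FCN3 probe differ between the fits.

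After slide adjustment, 0 of the 10 member probes were called, against 0.00829% of all probes (1 probe), and the smallest adjusted p among the members was 0.762. The sign of 6 member probes turned between the fits. Median scaling in place of quantile normalization gave a median difference of -0.14 over all probes, against 0.04 with quantile normalization. STAB1, CLEC4G, both FCN2 probes, OIT3 and PECAM1 had differences below 0 under that scaling, which moved the median of all probes below 0 as well. CON5 and CON6 are both male, while MO1, MO2 and MO3 are female, so slide adjustment alone mixes in sex. With slide and sex as covariates, STAB2 was -0.12, the second FCN3 probe -0.23 and the second FCN2 probe 0.01. These signs were those of the fit without covariates. The first FCN2 probe (-0.12), PECAM1 (-0.19) and KDR (-0.09) kept the turned sign. No direction is given for the 6 probes whose sign turned with slide adjustment.

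The control livers were also compared between slides, a contrast in which slide is mixed with sex. Between the control arrays of slide 2 (CON5 and CON6, both male) and of slide 1 (CON1 to CON4, 3 of them female), 0 of 10 member probes were called, against 4.29% of all probes (0.381% higher and 3.9% lower on slide 2). 1 of 10 member probes passed an unadjusted p under 0.05, against 23.4% of all probes. That probe was the second FCN3 probe, detected on all 4 controls of slide 1 and on neither control of slide 2, so it met the detection rule among controls only through the slide where it is high. It was at least 1.31-fold lower on slide 2, against the lowest detected signal of CON5 and CON6 (adjusted p = 0.186). The measured means were 5.23 on slide 2 and 5.82 on slide 1. Among control males, CON4 of slide 1 read 5.30, and CON5 and CON6 of slide 2 read 5.26 and 5.20. The control females, all on slide 1, read 5.94 to 6.07. Without CON4, the male of slide 1, the probe was at least 1.48-fold lower on slide 2 (adjusted p = 0.0417). In that setting slide and sex cannot be told apart, and no support is drawn from this call. The number of all probes called without CON4 is given in the last section. It was the 1 member probe of 10 whose control values did not overlap between slides, against 36.2% of all probes. KDR differed between slides by 0.51 (adjusted p = 0.278), STAB1 by -0.46 (adjusted p = 0.291) and STAB2 by -0.44. Among control males, CON4 of slide 1 read 6.42 for KDR, 6.95 for STAB1 and 8.41 for STAB2. CON5 and CON6 of slide 2 read 7.08 and 7.36 for KDR, 6.94 and 6.29 for STAB1, and 8.55 and 8.44 for STAB2. The first FCN3 probe differed between slides by 0.09, less than its SD within either group. By size, the differences between slides, which mix slide with sex, exceed the MO minus CON differences of STAB1, STAB2 and KDR.

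Among female fetuses, with all MO arrays on slide 2 and all CON arrays on slide 1, 0 of 10 member probes were called, against 0% of all probes. 1 of 10 passed an unadjusted p under 0.05, against 14% of all probes, and 2 of 10 did not overlap between the groups, against 26.2% of all probes. PECAM1 was one of them, with 8.50, 8.61 and 8.25 in MO1 to MO3 and 7.96 to 8.12 in the 3 CON females. Its difference was 0.42 (SE 0.21, adjusted p = 0.41). The other was the second FCN3 probe, with 5.87, 5.11 and 5.27 in MO1 to MO3 and 5.94 to 6.07 in the CON females, and a difference of -0.58 (SE 0.20, adjusted p = 0.23). It was the probe that passed the unadjusted threshold. Among females it was detected in MO1 and all 3 CON livers and not in MO2 or MO3, so the size of this difference is taken against values mostly at background. Differences in females were -0.34 for STAB2, -0.15 for CLEC4G and -0.52 for the first FCN3 probe, and 0.01 for OIT3.

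Among male fetuses, where CON5 and CON6 share slide 2 with both MO arrays, 0 of 10 member probes were called (0% of all probes), and 0 passed an unadjusted p under 0.05, against 8.85% of all probes. STAB1 was the 1 probe of 10 without overlap, against 24% of all probes, with 6.97 and 7.09 in MO males and 6.29 to 6.95 in CON males, a difference of 0.30 that was 0.086 without CON6. The first FCN3 probe differed by -0.52, but by -0.11 without CON5 and by -0.17 without MO4. PECAM1 read 7.57 and 8.47 in MO4 and MO5 and 8.37 to 8.43 in CON males. Its difference of -0.39 rested on MO4: it was 0.06 without MO4 and -0.84 without MO5. Restricted to males of slide 2, the differences were 0.41 for STAB1, -0.75 for the first FCN3 probe and -0.38 for PECAM1.

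The difference between these effects, female minus male, was called for 0 of 10 member probes (0% of all probes). 1 of 10 passed an unadjusted p under 0.05, against 7.53% of all probes. It was PECAM1, at 0.81 (SE 0.32, 95% confidence interval 0.11 to 1.50, adjusted p = 0.629), and it was 0.35 (adjusted p = 0.996) without MO4. The first FCN2 probe had the largest value by size, -0.92, with a wide interval (-2.24 to 0.40).

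Female and male livers were also compared across both conditions, with condition as a covariate. 0 of 10 member probes were called, against 0.0332% of all probes (4 probes), and 2 of 10 passed an unadjusted p under 0.05, against 11.2% of all probes. The sexes overlapped for all 10 member probes, while 0.705% of all probes did not overlap. STAB2 averaged 8.94 ± 0.44 in females and 8.46 ± 0.19 in males (SD, n = 6 and 5), a female minus male difference of 0.50 (SE 0.20, 95% confidence interval 0.07 to 0.93, adjusted p = 0.392). MO2 and CON3 were the female livers that lay in the male range of STAB2, which ran to 8.72. The second FCN3 probe averaged 5.71 ± 0.41 in females and 5.19 ± 0.18 in males, a difference of 0.56 (SE 0.16, adjusted p = 0.327). It was detected in 4 of 6 females and 1 of 5 males, so most male values were at background and the size of the difference is uncertain. CLEC4G and the first FCN3 probe differed by 0.29 and 0.33, and KDR by -0.25, without passing the test. With condition and slide as covariates, 0.0414% of all probes and 0 of 10 member probes were called, and the differences were 0.46 for STAB2 and 0.47 for the second FCN3 probe (adjusted p = 0.931 for the FCN3 probe).

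Across arrays the members did not vary as 1 block. Correlations between the 8 genes were computed over the 11 arrays after subtracting each slide's mean, with exact permutation of arrays within slides, two-sided, over 28 gene pairs. The highest 3 joined STAB2, CLEC4G and OIT3. CLEC4G and OIT3 had Pearson's r = 0.896 (exact permutation p = 0.00459) and Spearman's rho = 0.809 (exact permutation p = 0.00565). STAB2 and CLEC4G had r = 0.888 (exact permutation p = 0.00187) and rho = 0.927 (exact permutation p = 0.000413). STAB2 and OIT3 had r = 0.850 (exact permutation p = 0.00536) and rho = 0.736 (exact permutation p = 0.0108). Adjusted over the 28 pairs, the p-value of r for each of these pairs was 0.05, which is at the threshold and not under it. The next smallest adjusted p-value was 0.256.

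These correlations stayed high in the subsets of arrays that were computed. The subsets are parts of the same arrays on which the pairs were picked as the highest, so they give no separate support. Without the 2 arrays farthest from the median of the first gene named, r was 0.917 for CLEC4G and OIT3 (without MO2 and CON4), 0.828 for STAB2 and CLEC4G and 0.822 for STAB2 and OIT3 (both without MO1 and CON1). Within the 7 arrays of slide 2, r was 0.940, 0.841 and 0.848 for the same pairs in that order. Slide 1, with 4 arrays, held too few for a value of its own. Ranked by r with STAB2 among the other 12064 probes, CLEC4G came 5th and OIT3 17th, and OIT3 came 3rd for CLEC4G. All 3 genes were above the slide mean in MO1, MO3, MO5, CON1 and CON2 and below it in MO2, MO4, CON3, CON4 and CON5. Relative to the slide mean, STAB2, CLEC4G and OIT3 stood at 0.51, 0.44 and 0.26 in MO1 and at -0.34, -0.46 and -0.31 in MO2. MO livers were thus found among both the high and the low arrays. That each slide, and so the CON group, held both follows from subtracting the slide means.

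**Figure D3:**
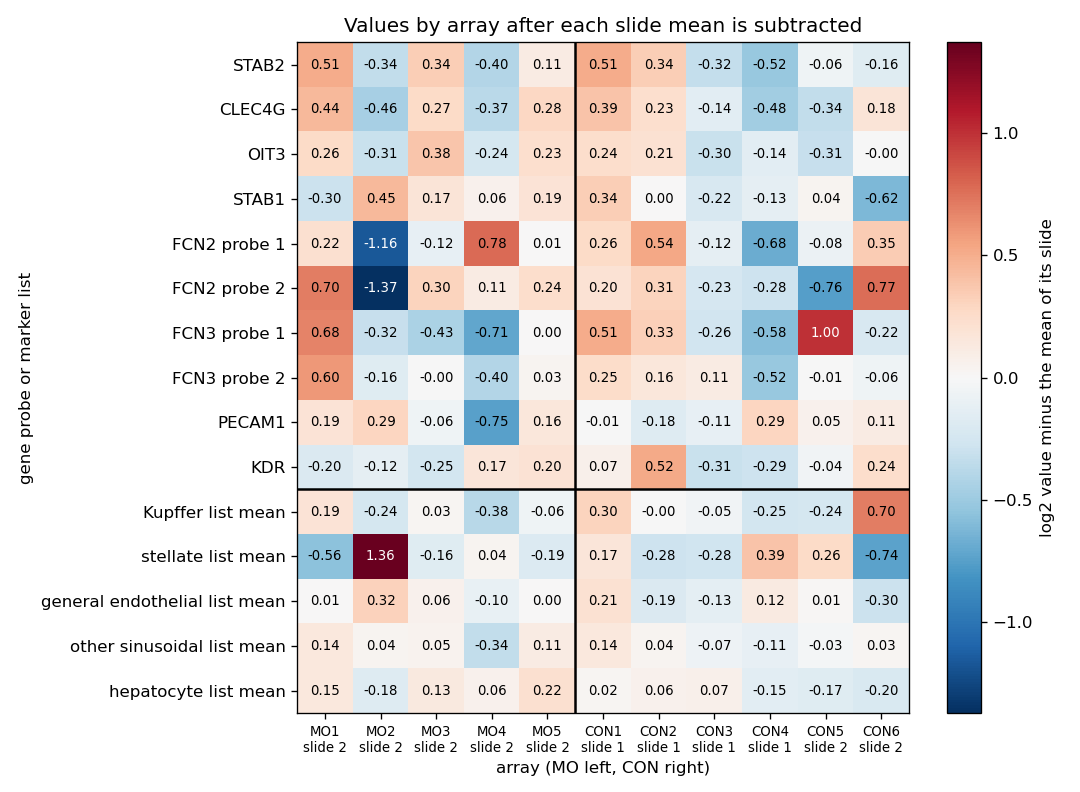
Log2 value of each member probe, and mean of 5 marker lists, after subtracting the mean of its slide, by array, with MO arrays left of the line and CON arrays right of it. STAB2, CLEC4G and OIT3 share their high and low arrays, and the stellate list stands at 1.36 in MO2.

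STAB1, the paralogue of STAB2, did not follow it over all arrays. STAB1 and STAB2 had r = 0.142 over the 11 arrays, and 0.314 without CON6 and MO2. Without subtracting slide means, r was 0.745 over the CON arrays and -0.625 over the MO arrays. PECAM1 and KDR, the general endothelial members, had r = -0.350. STAB2 and FCN3 had r = 0.632 (exact permutation p = 0.0465, adjusted 0.256), FCN2 and KDR r = 0.605 (exact permutation p = 0.0495, adjusted 0.256), and FCN2 and PECAM1 r = -0.703 (exact permutation p = 0.0548, adjusted 0.256). Without MO2 and MO4 the FCN2 and PECAM1 correlation was -0.496. These pairs did not pass the adjustment.

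**Figure D4:**
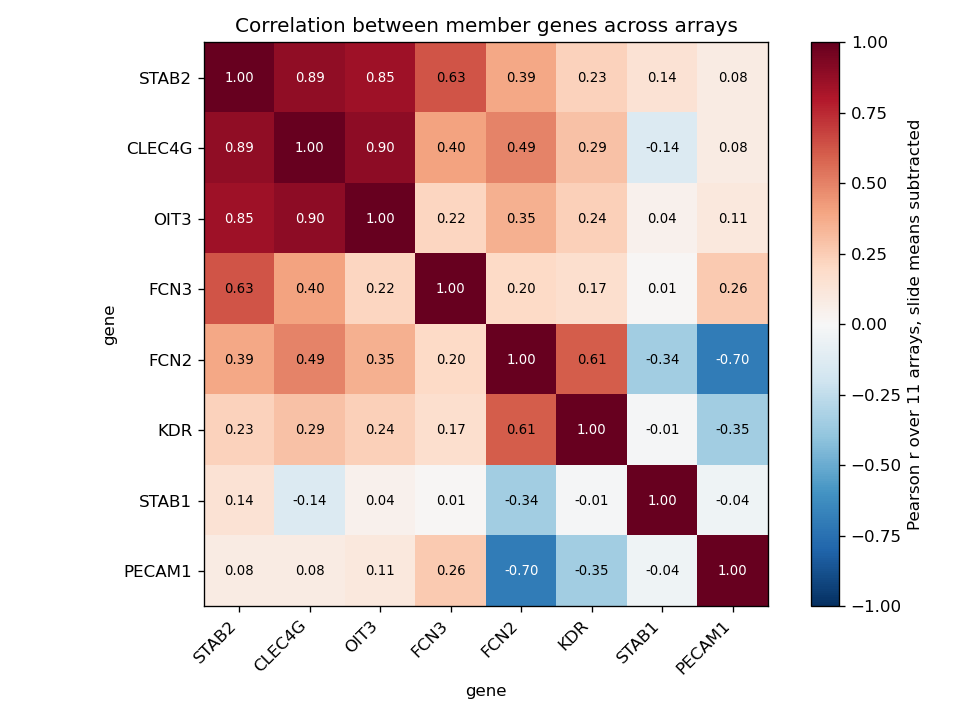
Pearson's r between the 8 detected member genes over the 11 arrays, with each slide's mean subtracted and the brighter probe of FCN2 and FCN3 used. STAB2, CLEC4G and OIT3 form the block of high values, from 0.85 to 0.90.

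The named probes whose slide-centred pattern was most like each member, over the same 11 arrays and 9802 other named probes, are given as a description. CLEC4G was most like EFNA1 (r = 0.94), LRRC3DN (0.92) and OIT3 (0.90), and OIT3 was most like GPAT4 (0.94), PF4V1 (0.94) and EFNA1 (0.92). EFNA1, an ephrin ligand, was thus near both. STAB2 was most like MAG (0.90), CLEC4G (0.89) and ADH1A (0.86), an alcohol dehydrogenase of hepatocytes. STAB1 was most like PTOV1 (0.90), ATP1B2 (0.89) and PDGFRB (0.89), the last a receptor of stellate cells and pericytes. FCN2 was most like CSK (0.95), HCG4B (0.93) and DGAT1 (0.92), and FCN3 like MYPN (0.87), KRT83 (0.84) and SYNE3 (0.83). PECAM1 was most like CRBN (0.90), HCG4 (0.90) and SLC3A2 (0.89), and KDR like TBC1D20, RDH8 and HTR3A (0.95 each). The highest r lay between 0.87 and 0.95 for every member, STAB1 and PECAM1 included, so these values set no member apart.

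Other genes of the sinusoid were read from a further list of 14, of which 10 were tested. 0 were called, 6 lay above 0 and 4 below, with a median difference of 0.08. Over this and the 11 lists that follow, 0 genes were called. At an unadjusted p under 0.05, which 13.1% of all probes passed, 3 of 21 general endothelial and 3 of 14 Kupffer genes passed. So did 1 of 10 other sinusoidal, 1 of 6 lectin pathway, 1 of 5 scavenger, 1 of 1 lymphatic and 1 of 8 hepatocyte genes. CD163 was counted in both the Kupffer and the scavenger list. Among those counted, the endothelial gene S1PR1 and the hepatocyte gene TF met the detection rule only through the condition where they are high. CD209, a C-type lectin so close to CLEC4M that their transcripts may share a probe, differed by -0.79 (SE 0.36, adjusted p = 0.377), but by -0.18 after slide adjustment. CD36, a scavenger receptor and fatty acid transporter, differed by -0.48 (SE 0.22, adjusted p = 0.382), and by -0.70 after slide adjustment. LTBP4, a TGF-beta binding protein, differed by 0.61 and F8, coagulation factor VIII, by 0.13. The probes of MRC1, FCGR2B and CRHBP, all used as sinusoidal markers, were detected on 0 arrays.

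Of 30 general endothelial genes 21 were tested, 0 were called, and 13 lay above and 8 below 0, with a median of 0.16. CLDN5, the tight junction claudin of endothelium, differed by 0.54 (SE 0.18, adjusted p = 0.33), and by 0.30 after slide adjustment. NOS3, endothelial nitric oxide synthase, differed by 0.27 (SE 0.13, adjusted p = 0.382), and by 0.29 after slide adjustment. TIE1, a receptor that modulates angiopoietin signalling, differed by 0.37 (SE 0.18, adjusted p = 0.389), and by 0.11 after slide adjustment. S1PR1, the sphingosine 1-phosphate receptor, was detected on 0 MO arrays and 4 CON arrays. It thus met the detection rule only through the CON group. Its mean over all CON arrays was 1.22-fold the mean lowest detected signal of MO arrays (adjusted p = 0.369 for the measured difference). No support for a lower level in MO livers is drawn from that test. After slide adjustment its difference was 0.05.

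Ligands and receptors around KDR were tested for 7 of 14 genes, with 0 called, 5 above and 2 below 0, and a median of 0.01. The co-receptor NRP1 differed by -0.64 (SE 0.33, adjusted p = 0.406), the phosphatase PTPRB by 0.17, and the angiopoietin receptor TEK by -0.25. After slide adjustment these were -0.39, 0.46 and 0.46 in the same order. TEK and the ligand VEGFB were called between slides in controls, both with a slide 2 minus slide 1 difference of -1.05 (adjusted p = 0.0217 and 0.0476). VEGFB differed by 0.0061 between MO and CON livers, and by 0.71 after slide adjustment. Of 11 angiocrine and Notch genes 4 were tested and 0 called, with differences of 0.24 for NOTCH1, 0.12 for JAG1, 0.07 for RSPO3 and -0.16 for BMP2.

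The other genes of the lectin pathway, to which the ficolins belong, were all 6 tested, with 0 called, 2 above and 4 below 0, and a median of -0.15. COLEC10, a liver collectin, differed by 0.52 (SE 0.16, adjusted p = 0.315), and by 0.39 after slide adjustment. MBL2, mannose-binding lectin, differed by -0.38 (SE 0.21, adjusted p = 0.424), FCN1, the ficolin of monocytes, by -0.31, and MASP1, a protease activated by the bound lectins, by -0.19. FCN1 was detected on 3 MO arrays and 5 CON arrays, so it met the detection rule only through the CON group, where it is high. Of 10 other scavenger receptor genes 5 were tested and 0 called, with a median of -0.33. CD163, the haemoglobin scavenger receptor of macrophages, differed by -0.60 (SE 0.27, adjusted p = 0.371) and MARCO by -0.33, while LRP1, a lipoprotein and protease receptor, differed by 0.14. Of the 4 lymphatic genes only CCL21 was tested, with a difference of 0.77 (SE 0.29, adjusted p = 0.358), and 0.47 after slide adjustment. PROX1, PDPN and FLT4, the defining lymphatic genes, were detected on 2, 3 and 3 arrays.

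**Figure D5:**
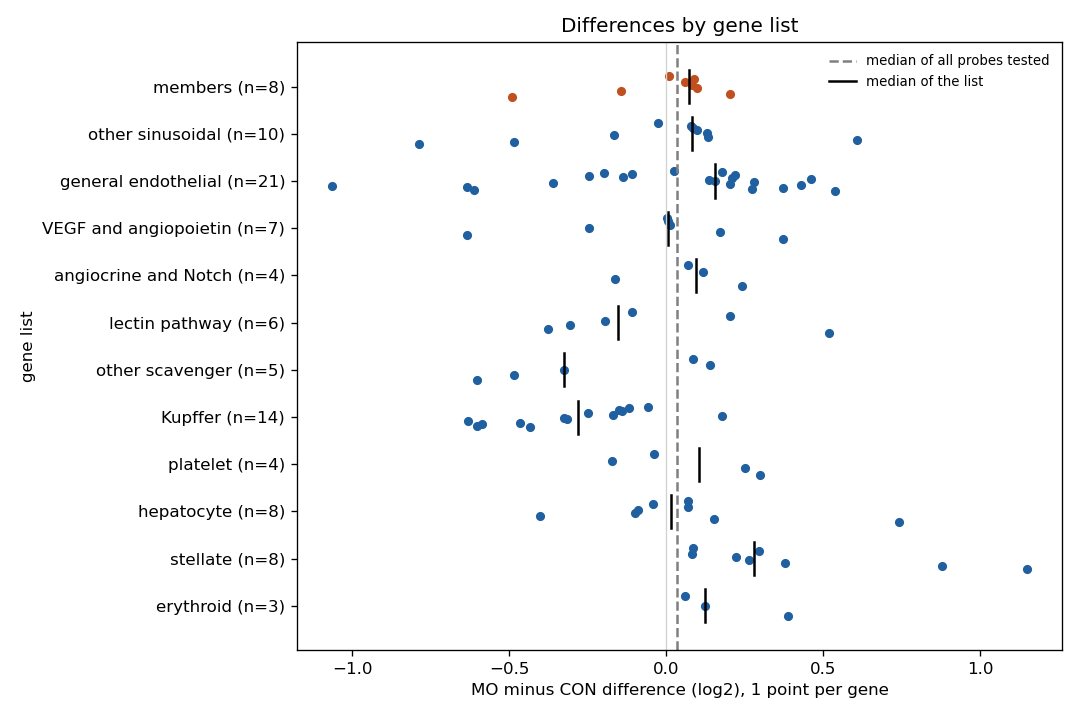
MO minus CON difference on the log2 scale for each tested gene of the member list and 11 other lists, 1 point per gene, with the median of each list as a black line and the median of all probes tested as a dashed line. The Kupffer list has 13 of 14 genes below 0 and the stellate list 8 of 8 above 0, and no gene shown passed the threshold.

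Markers of other liver cells were read beside the members. Of 15 Kupffer cell genes 14 were tested and 0 called, with 1 above and 13 below 0 and a median of -0.28 (-0.35 after slide adjustment). CD74 differed by -0.43 (SE 0.14, adjusted p = 0.33), LYZ by -0.59 and SIGLEC1 by -0.47. SIGLEC1 was detected on 2 MO arrays and 5 CON arrays, so it met the detection rule only through the CON group, where it is high. The summed intensity of the tested Kupffer genes was 10610 to 15110 in MO livers and 11480 to 20970 in CON livers, and CD5L was detected on 0 arrays. Of 11 stellate cell genes 8 were tested and 0 called, with 8 above 0 and a median of 0.28. COL1A1 differed by 1.15 (SE 0.64, adjusted p = 0.424), COL1A2 by 0.88, DCN by 0.38 and LRAT by 0.26. Their summed intensity was 7659 to 63530 in MO livers and 7270 to 17960 in CON livers. The high end was MO2, whose mean over the list was 1.36 above its slide, with CON4 next at 0.39. MO2 was also the array with the lowest CLEC4G and FCN2 values, and STAB2, OIT3, FCN3 and KDR were below the slide mean there. Other endothelial values went the other way in MO2. PECAM1 was the highest of all arrays, at 8.61, and STAB1 stood 0.45 above its slide mean. The general endothelial list was highest in MO2 too, at 0.32. The part of a larger stellate share in the MO2 values was not tested.

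Hepatocyte markers were tested for 8 of 10 genes, with 0 called, 4 above and 4 below 0, and a median of 0.01. Their summed intensity was 88910 to 102300 in MO livers and 91430 to 105900 in CON livers. ALB differed by -0.10, APOB by 0.15 and FGB by -0.40. After slide adjustment FGB differed by 0.53, and it was called between slides in controls, with a slide 2 minus slide 1 difference of -1.39 (adjusted p = 0.0148). TF, transferrin, was detected on 4 MO arrays and 0 CON arrays, so it met the detection rule only through the MO group. Its mean over all MO arrays was 1.34-fold the mean lowest detected signal of CON arrays (adjusted p = 0.246 for the measured difference). No support is drawn from that test. After slide adjustment the TF difference was 0.53. Platelet genes, read because PECAM1 is a platelet protein too, were tested for 4 of 9, with 0 called, 2 above and 2 below 0. PF4, PPBP, ITGA2B and GP9 were detected on 0 arrays, and the summed intensity of the list was 236.4 to 307.4 in MO livers and 216.3 to 294.2 in CON livers. The tested platelet genes were GP6 (0.30), GP1BA (0.25), TUBB1 (-0.17) and TREML1 (-0.04). TUBB1 was detected on 3 MO arrays and 5 CON arrays, so it met the detection rule only through the CON group. Erythroid genes were tested for 3 of 8, with 0 called and differences of 0.39 for ALAS2, 0.12 for AHSP and 0.06 for HBM. After slide adjustment these were -0.28, -0.90 and -1.04 in the same order. Their summed intensity ranged widely in both groups, from 774.4 to 3035 in MO livers and 345 to 4620 in CON livers. The intensities of the 8 detected member genes summed to 2759 to 5009 in MO livers and 2818 to 5015 in CON livers.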

How the data were processed

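The members and the other gene lists were chosen with earlier results of these data known. Per the file headers, the authors' table holds linear intensities of each probe and their detection p-values, for every array. GenomeStudio and Partek appear in the submitters' processing notes with no role given. The deposited log2 values equal the log2 of the intensities within 5e-09, so the authors had not normalized them. All value columns were matched to a sample (0 unmatched). Intensities were processed with neqc of limma 3.58.1 in R 4.3.3 (normexp background correction inferred from detection p-values, offset 16, quantile normalization). The 12065 of 48803 probes detected (p under 0.05) on 4 or more arrays were fitted with lmFit and eBayes and adjusted by Benjamini-Hochberg, threshold 0.05. Adjusted p-values are limma's. SE is limma's moderated standard error. Contrasts within sexes came from a fit of 4 group means. The platform annotation gave 1 symbol to 28098 probes, several to 13 and none here to 20692. Members with several probes were described by each of them, and genes in lists by the brightest. NR2F2, HNF4A and GP1BB, among others, were not analysed here. Named genes were all members, the 4 genes of each other list with the smallest unadjusted p for MO minus CON, and the 3 most correlated genes of each member. Genes named beyond these because they are standard markers, or not detected, were chosen after their values were seen. Other filters, scalings, covariates and left-out arrays were tried, and the fits were tested on simulated data. No probe sequence or coordinate was used here.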

Additional observations from a re-analysis of the deposited data

Results flagged for a closer look

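The second FCN2 probe in MO2 stood apart from the other MO livers. It read 5.46 in MO2, and the other MO arrays read 6.94 to 7.53. The MO2 value lay near background, with a detection p-value of 0.0422, and the lowest detected signal of that array was 5.33. How far it stood apart is thus uncertain. The gap to the nearest array was 0.714 of the range of the group, against Dixon's 95% critical value of 0.71. Of 20 groups examined this was the only one past its critical value, and chance gives about 1 in 20. The first FCN2 probe was lowest in MO2 as well, at 9.41. Without MO2 the MO minus CON difference of the second FCN2 probe was 0.36 (adjusted p = 0.567), against 0.02 with it.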

How the results depend on the processing

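With 5 and 6 arrays and a control group split over both slides, these data set wide limits on single genes, and a sign alone carries little for the members. No paired analysis was possible because replicate numbers only name arrays and tie no MO fetus to a CON fetus. In MO minus CON, 200 of 247 recomputed member values kept their sign, 47 turned and 0 passed the threshold (smallest adjusted p 0.256). The cause of each turn was not tested.

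Counts of called probes in MO minus CON, 0 in all, were 1 with the deposited log2 values, 1 with slide as a covariate, 1 with sex as a covariate and 9 with array weights, and 0 to 2 when 1 array was left out (2 without CON5). For slide 2 minus slide 1 in controls, 517 became 244 with no filter, 23 with median scaling and 0 with the deposited values, and 0 to 599 when 1 array was left out (0 without CON5, 2 without CON6, 181 without CON1, 599 without CON4). Within females, 0 became 1 with no filter and 0 to 456 when 1 array was left out (456 without CON4). Within males, 0 became 1 with the deposited values and 0 to 4 when 1 array was left out. For the interaction, 0 became 1 with the deposited values and 0 to 20 when 1 array was left out (20 without CON4). For female minus male, 4 became 1 with no filter, 2 with median scaling and 3 to 5 when 1 array was left out.

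The median difference over all probes moved with the scaling: to -0.14 in MO minus CON (from 0.04), -0.25 within males and 0.25 for the sex by condition interaction with median scaling, and with the deposited values to 0.36 between slides, 0.23 within females, -0.16 within males, 0.39 for that interaction and -0.16 between the sexes.

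The following values turned their sign in MO minus CON. With median scaling they were STAB1 -0.11, CLEC4G -0.23, FCN2 -0.15 and -0.18 (first and second probe), OIT3 -0.11 and PECAM1 -0.18. With the deposited values they were CLEC4G -0.083, FCN2 probe 1 -0.025 and PECAM1 -0.033. With slide as a covariate, or slide 2 only, they were STAB2 0.15, FCN2 -0.19 and -0.0081, FCN3 probe 2 0.049, PECAM1 -0.12 and KDR -0.14. With slide as a random block they were FCN2 probe 1 -0.044 and PECAM1 -0.027. With slide and sex as covariates they were CLEC4G -0.078, FCN2 probe 1 -0.12, PECAM1 -0.19 and KDR -0.087. CLEC4G was -0.019 with sex as a covariate, PECAM1 -0.38 in males of slide 2, and STAB1 -0.067 with array weights.

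Between slides in controls, FCN2 probe 2 was -0.011 and FCN3 probe 1 -0.0298 with median scaling, and CLEC4G 0.094 and OIT3 0.18 with the deposited values. The second FCN3 probe, not detected on slide 2 in controls, passed the threshold without CON4 (adjusted p 0.0417), where slide and sex cannot be told apart. Within females, OIT3 was -0.028 with median scaling, and STAB1 and FCN2 probe 2 were 0.13 each with the deposited values. Within males, median scaling gave STAB1 -0.073, CLEC4G -0.26, FCN2 probe 2 -0.10, OIT3 -0.24 and KDR -0.022, and the deposited values gave STAB1 -0.053, CLEC4G -0.21, FCN2 probe 2 -0.083, OIT3 -0.14 and KDR -0.0055. For the interaction, median scaling gave OIT3 0.21 and KDR 0.11, and the deposited values gave STAB1 0.18, STAB2 0.13, CLEC4G 0.20, FCN2 probe 2 0.21, FCN3 probe 2 0.078, OIT3 0.36 and KDR 0.30. For female minus male, PECAM1 was 0.0045 with median scaling and 0.12 with condition and slide as covariates, and OIT3 -0.0395 with the deposited values.

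Leaving out 1 array at a time turned the sign within these ranges. In MO minus CON they were STAB1 -0.028 to 0.20, CLEC4G -0.092 to 0.13, FCN2 probe 1 -0.12 to 0.36, FCN2 probe 2 -0.16 to 0.36 and PECAM1 -0.023 to 0.24. Within females they were STAB1 -0.27 to 0.10, CLEC4G -0.33 to 0.12, FCN2 probe 1 -0.59 to 0.11, FCN2 probe 2 -0.60 to 0.44, OIT3 -0.16 to 0.22 and KDR -0.074 to 0.34. Within males they were STAB2 -0.27 to 0.25, CLEC4G -0.18 to 0.47, FCN2 probe 2 -0.052 to 0.71, FCN3 probe 2 -0.39 to 0.044, OIT3 -0.11 to 0.37 and PECAM1 -0.84 to 0.065. For the interaction they were CLEC4G -0.63 to 0.027, FCN2 probe 2 -0.90 to 0.16, FCN3 probe 1 -0.42 to 0.36, KDR -0.43 to 0.039 and OIT3 -0.35 to 0.12. For female minus male they were FCN2 probe 2 -0.23 to 0.23 and PECAM1 -0.25 to 0.0497. Between slides they were CLEC4G -0.42 to 0.10, FCN2 probe 2 -0.73 to 0.80 and FCN3 probe 1 -0.52 to 0.70. Where 1 array was left in a group, its spread was taken to be that of the other groups. FCN3 probe 1 in MO minus CON stayed between -0.70 and -0.35.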
